A study of Mus musculus with 12 samples.

Results

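The 5 genes described here encode receptors and ligands of the colony-stimulating factor family, Csf1r, Csf3r, Csf2rb, Csf1 and Csf2. They were taken by name from a NanoString panel of 545 endogenous immune genes, and all 5 were found on it. Barcoded transcripts were counted in microglia sorted from the hippocampus of male Balbc mice at postnatal day 28. Of 12 samples, 6 were from pups that underwent brief daily separation (BDS), kept apart from the mother for 15 min a day over postnatal days 1 to 21, and 6 were from control pups, with each pup from a different litter. All samples had been amplified by 5 rounds of PCR from 2 ng of RNA. As a model this is a single sex, strain and age, and a sort from bulk tissue rather than single cells.

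Colony-stimulating factors are secreted proteins that keep myeloid cells alive and direct their growth. Csf1r is the tyrosine kinase receptor for Csf1 and for interleukin-34, and in mice microglia depend on it for survival. Csf3r is the receptor for granulocyte colony-stimulating factor and is best known from neutrophils. Csf2rb is the signalling chain shared by the receptors for granulocyte-macrophage colony-stimulating factor (Csf2), interleukin-3 and interleukin-5. In the brain Csf1 is made by microglia and by other glia, and Csf2 is chiefly a product of activated lymphocytes and other stimulated cells.

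A normalized count is the raw barcode count divided by a sample factor from 6 housekeeping genes. A gene was taken as present where at least 5 of 12 samples exceeded the mean plus 2 SD of the sample's own negative-control probes. Csf1r, Csf3r, Csf2rb and Csf1 exceeded it in 12 of 12 samples, and Csf2 in 0 of 12. All 12 microglial identity genes on the panel were present. Total counts were 641756 to 1171355 in BDS samples and 893936 to 1409376 in control samples. BDS 21, BDS 25 and BDS 55 had the lowest totals of all, with housekeeping factors of 0.61, 0.65 and 0.85, against 1.10, 1.02 and 1.28 in BDS 7, BDS 35 and BDS 43. Their ratios of Rpl19 to Polr2a, a pair of housekeeping genes outside the scaling set, were 0.79, 0.61 and 0.47, and the ratio did not exceed 0.27 in the other 9 samples. The members' fold changes and ratios are therefore given with and without these 3 samples. Their normalized counts of Csf1r also lay above those of all other samples. Whether sample quality had a part in those results was not tested.

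Csf1r stood out as one of the most counted transcripts of these microglia, and its level divided the BDS group. It had the highest or second highest endogenous count in each of the 12 samples. BDS 21, BDS 25 and BDS 55 had 129944, 111243 and 106688 normalized counts. BDS 7, BDS 35 and BDS 43 had 79889, 80012 and 78625, and control samples ran from 80581 to 91003 with a median of 84527. The 3 low-count BDS samples thus lay above all the other 9, as for 15 of 357 genes (4.2%). The remaining 3 BDS samples lay below every control, as for 14 of 357 genes (3.92%). Under housekeeping scaling the BDS group so surrounded the controls on both sides. With counts scaled to the total, BDS 7, BDS 35 and BDS 43 had 80967.3, 85444.5 and 82813.9. These values lay within the control range of 79917.4 to 86090.8, so the lower side depended on the scaling. The upper side held with total scaling, at 124024, 112731 and 113350 in BDS 21, BDS 25 and BDS 55. It did not hold when counts were scaled to the positive-control spikes alone, an alternative chosen after seeing the data. These 3 samples then had 68290, 58204 and 93248, against 71629 to 147911 in controls.

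The group means of Csf1r were 97734 ± 21437 in BDS and 84924 ± 3867 in controls (SD, n = 6 each). The log2 fold change was 0.20, with a 95% interval of -0.05 to 0.46, and did not pass the test across 357 present genes (edgeR quasi-likelihood test, adjusted p = 0.44). In that test 0% of genes passed in either direction after adjustment. At an unadjusted p under 0.05 the background was 11.5% of genes lower and 0.84% higher in BDS, and Csf1r was not among them (unadjusted p = 0.11). With these 3 samples left out, Csf1r was at -0.10 on the log2 scale, with an interval of -0.20 to 0.01 (edgeR, adjusted p = 0.90). Its direction also depended on the scaling. With TMM, which scales to the tested genes, the estimate was 0.30 (edgeR, unadjusted p = 0.036, adjusted p = 0.52), and the background was 5.04% of genes higher and 3.92% lower at an unadjusted p under 0.05. It was -0.28 when counts were scaled to the positive-control spikes alone, an alternative chosen after seeing the data. Under that scaling 9.52% of genes were lower at an unadjusted p under 0.05 and 0.28% after adjustment, and no member was among them. Raw counts of Csf1r averaged 85478 in BDS and 96831 in controls. In sorted bulk samples fewer cells of a type and less RNA per cell cannot be told apart.

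**Figure D1:**
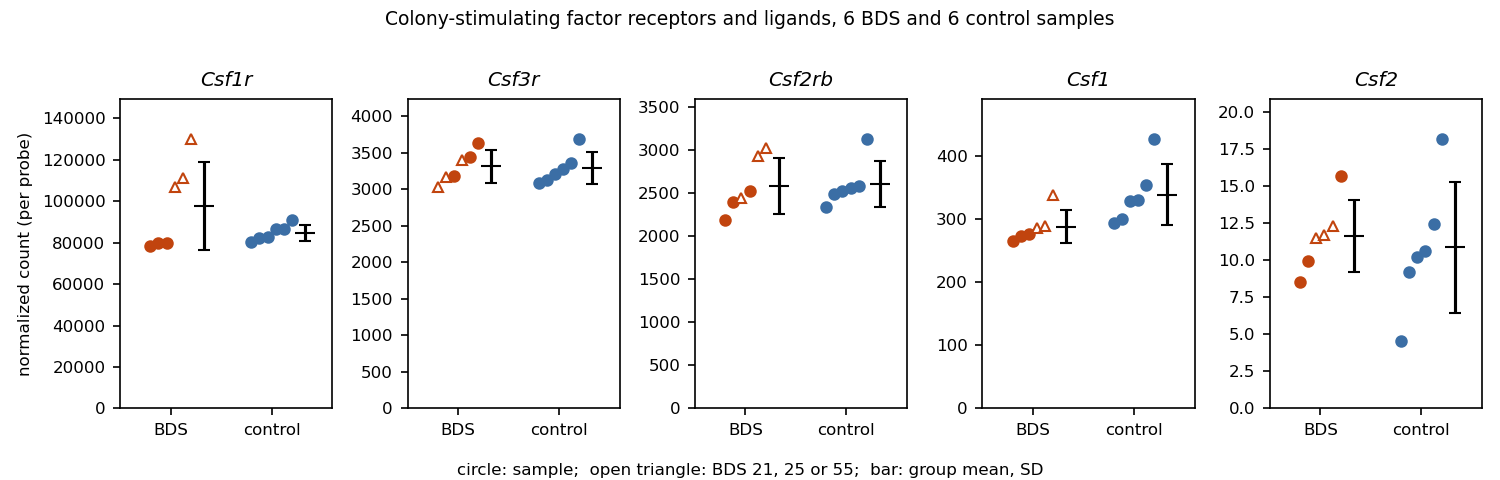
Normalized counts of the 5 genes in each BDS sample (left) and control sample (right), on linear axes that start at 0; open triangles are BDS 21, BDS 25 and BDS 55, and bars are group means with SD (n = 6). Csf1r in the open triangles lies above all other samples, 5 of 6 BDS samples lie below every control for Csf1, and Csf2 stays under 20 counts.

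The higher level of Csf1r in the 3 low-count samples under housekeeping scaling was compared with the rest of the panel. Relative to the control mean, Csf1r was higher by 0.61, 0.39 and 0.33 on the log2 scale in BDS 21, BDS 25 and BDS 55. Its mean difference of 0.44 in these samples was the highest among the 89 present genes of highest mean count, whose median was -0.17, and ranked 26 of 357 over all present genes. Over the panel, 15 genes (4.2%) had those 3 samples above all the other 9, and 56 genes (15.7%) had them below. Csf1r took 13.7% of all endogenous counts in BDS 21 (95% Wilson interval 13.6 to 13.8, counting error only). The share averaged 11.0% ± 2.1 in BDS and 9.14% ± 0.25 in controls (SD, n = 6 each), so most of the spread lay within the BDS group.

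The genes whose levels followed Csf1r most closely across the samples were sought as a description. They were C1qb, a chain of complement C1q (Pearson r = 0.92), Tyrobp, the adaptor of Trem2 and other myeloid receptors (0.91), Trem2, a lipid-sensing receptor of microglia (0.90), and then Tnfrsf13b (0.87) and Tapbp (0.87). These values are over 12 samples that share their scaling factors, and they rest largely on the 3 low-count samples. Over the other 9 samples r was 0.70 for C1qb, 0.52 for Tyrobp, 0.50 for Trem2, 0.06 for Tnfrsf13b and 0.56 for Tapbp. C1qb had 25925 ± 5933 normalized counts in BDS and 23188 ± 2022 in controls, and Trem2 had 11905 ± 2222 in BDS and 10725 ± 565 in controls (SD, n = 6 each). Like Csf1r, both spread more widely among BDS samples than among controls, and neither passed the adjusted threshold. Both were chosen for following Csf1r in these same samples, so the shared spread is not a separate result.

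**Figure D2:**
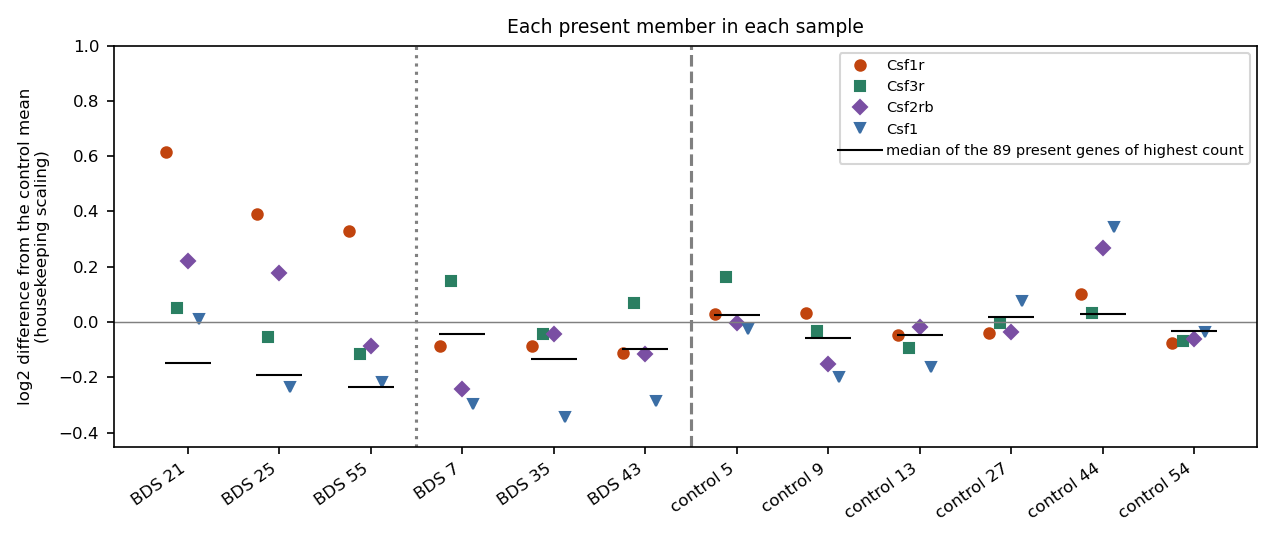
Log2 difference of each present member from the control mean in every sample (housekeeping scaling), with BDS samples left of controls and BDS 21, BDS 25 and BDS 55 first; the horizontal bar is the median of the 89 present genes of highest count. Csf1r lies at 0.33 to 0.61 in the 3 low-count samples, where that median lies below 0, and at -0.11 to -0.08 in the other 3 BDS samples.

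Csf3r stood at nearly the same level in both groups. BDS samples ran from 3039 to 3641 normalized counts with a median of 3298, and control samples from 3082 to 3686 with a median of 3249. The groups overlapped almost completely, with means of 3315 ± 222 in BDS and 3294 ± 217 in controls (SD, n = 6 each). The log2 fold change was 0.01, with a 95% interval of -0.15 to 0.17 (edgeR, adjusted p = 0.94), and 0.06 with an interval of -0.11 to 0.23 without the 3 low-count samples. The receptor was counted in every sample, whereas few defining neutrophil markers were above background. Of 7 such markers on the panel, Camp, Cxcr2 and Il1r2 were above background in 0 of 12 samples, S100a9 in 1 (a control, at 94.7 normalized counts), Cxcr1 in 1, Ltf in 5 and S100a8 in 6. Their 7 normalized counts together summed to 69.9 to 113 in BDS samples and 68.7 to 186 in controls. The genes most like Csf3r across 12 samples were Prkcd (r = 0.80), Abcb10 (0.69), Map4k1 (0.68), Atg16l1 (0.61) and Pparg (0.59). With counts scaled to the total instead, r was 0.79 for Prkcd and 0.73 for Map4k1 but 0.47 for Abcb10, 0.45 for Atg16l1 and 0.26 for Pparg. Prkcd encodes a protein kinase C, and its r was 0.76 over the 9 samples.

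Csf2rb differed more between samples than between groups. The values were 2197, 3029, 2940, 2523, 2397 and 2446 normalized counts in BDS 7, BDS 21, BDS 25, BDS 35, BDS 43 and BDS 55. Control samples ran from 2341 to 3130 with a median of 2550. BDS 21, BDS 25 and control 44 were high, and the other 9 samples lay within 2197 to 2590. Means were 2589 ± 326 in BDS and 2609 ± 270 in controls (SD, n = 6 each), and the log2 fold change of -0.01 had a 95% interval of -0.22 to 0.20 (edgeR, adjusted p = 0.94). Without BDS 21, BDS 25 and BDS 55 it was -0.14, with an interval of -0.35 to 0.08. Its sign turned to 0.09 with TMM, so no direction is given for this gene. Mice carry a near copy, Csf2rb2, and whether the probe also captured its transcript was not tested. The genes most like Csf2rb were the interferon-induced Cxcl10 (r = 0.82) and Mx1 (0.80), with Cd5 (0.81), Stat5b (0.78) and the chemokine Ccl12 (0.77). With counts scaled to the total, r was 0.605 for Cxcl10, 0.78 for Mx1, 0.803 for Cd5, 0.655 for Stat5b and 0.813 for Ccl12. Stat5b, a transcription factor that carries the signal of this receptor chain, had 885 ± 98 normalized counts in BDS and 923 ± 61 in controls (SD, n = 6 each).

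Of the ligands, Csf1 was counted in every sample and Csf2 lay at background. The 250 bases before a single RefSeq start site of each gene are shown (GRCm38.p6, 5′ to 3′ on the gene's own strand). Capitals mark matches on either strand to an NF-kB type motif, GGG and CC with any 5 bases between. The Csf1 window, chr3:107760470-107760719 (minus strand), held 4, of which 2 overlap by all but 1 base, and the Csf2 window, chr11:54249900-54250149 (minus strand), held 0.
Csf1: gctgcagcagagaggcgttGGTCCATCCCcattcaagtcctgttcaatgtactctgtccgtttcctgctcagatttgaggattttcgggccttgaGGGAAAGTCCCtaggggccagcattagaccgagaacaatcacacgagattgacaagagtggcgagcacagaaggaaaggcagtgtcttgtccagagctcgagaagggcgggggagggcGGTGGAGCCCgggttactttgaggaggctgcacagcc
Csf2: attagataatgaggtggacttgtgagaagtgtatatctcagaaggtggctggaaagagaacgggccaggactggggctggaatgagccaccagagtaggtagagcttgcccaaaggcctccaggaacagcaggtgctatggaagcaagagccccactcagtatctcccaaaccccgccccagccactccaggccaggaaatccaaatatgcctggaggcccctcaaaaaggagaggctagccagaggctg
The motif occurs in 45.8% of 32851 promoter windows of the same length, so the match is common. Matches to the AP-1 motif TGANTCA and the PU.1 core GAGGAA, which occur in 6.75% and 23.3% of windows, numbered 0 in both. Sequence outside these windows, or at other start sites, was not examined, so a count of 0 does not describe the whole promoter. These letters describe the sequences and say nothing of which factors acted.

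Csf1 had the smallest p of the members under housekeeping scaling, though Csf1r had it under TMM, and its BDS values were mostly the lower ones. BDS 7, BDS 21, BDS 25, BDS 35, BDS 43 and BDS 55 had 273, 338, 285, 265, 276 and 289 normalized counts. Control 5, control 9, control 13, control 27, control 44 and control 54 had 330, 293, 300.0, 354, 426 and 328. All BDS samples except BDS 21 lay below the lowest control. At least 5 of 6 BDS samples lay below every control for 23 of 357 genes (6.44%), so this arrangement is not rare on the panel.

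The means of Csf1 were 288 ± 26 in BDS and 338 ± 48 in controls (SD, n = 6 each). The log2 fold change was -0.24 ± 0.11 (SE), with a 95% interval of -0.47 to 0.0004, and did not pass the threshold (edgeR, unadjusted p = 0.050, adjusted p = 0.38). Without BDS 21, BDS 25 and BDS 55 it was -0.32, with an interval of -0.61 to -0.03 (edgeR, unadjusted p = 0.035, adjusted p = 0.77). The 3 remaining BDS samples, at 265 to 276, then lay below all controls, as they did for 14 of 357 genes (3.92%). In that smaller comparison 5.6% of genes were lower at an unadjusted p under 0.05. Control 44, the highest sample, weighed on the estimate, which was -0.16 without it. Csf1 kept a negative sign in all 27 alternatives, from -0.66 with positive controls alone to -0.14 with TMM, and passed the adjusted threshold in 0 of them. The median over all tested genes was also below 0 in every alternative, at -0.50 with positive controls alone and -0.0093 with TMM. For Csf1 the authors' deposited table gives means of 309 in BDS and 359 in controls, a fold of 0.86 and an unadjusted p of 0.0459.

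Counting error bears on Csf1 more than on the receptors. With 185 to 354 raw counts in BDS and 289 to 484 in controls, counting alone gives a sample an SD of 4.55% to 7.35%. The spread between samples was 9.12% of the mean in BDS and 14.3% in controls. The genes most like Csf1 over 12 samples were Gpr183, an oxysterol receptor (r = 0.90), Cybb, an NADPH oxidase subunit (0.90), Nfatc2 (0.84), Cxcl10 (0.82) and Ccr10 (0.81). For these 5 genes r lay between 0.78 and 0.91 over the 9 samples without BDS 21, BDS 25 and BDS 55. Unlike the genes most like Csf1r, they followed Csf1 about as closely there. Over 12 samples scaled to the total, r was 0.804 for Gpr183, 0.848 for Cybb, 0.682 for Nfatc2, 0.755 for Cxcl10 and 0.76 for Ccr10. Of markers of other brain cells, Mbp, of oligodendrocytes, had 129 ± 32 normalized counts in BDS and 138 ± 46 in controls, and the neuronal Icam5 had 23.0 ± 4.7 in BDS and 19.1 ± 4.2 in controls, above background in 6 of 12 samples. App, which microglia also express, had 5098 ± 881 in BDS and 6044 ± 471 in controls (SD, n = 6 each). The sum of these 3 markers, most of it App, ran from 4108 to 6508 in BDS and from 5803 to 7155 in controls. Its part in the Csf1 values was not tested.

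Csf2 was not detectable above background. Raw counts were 11, 7, 8, 16, 11 and 10 in BDS 7, BDS 21, BDS 25, BDS 35, BDS 43 and BDS 55, against detection limits of 18.2 to 21.8. They were 4, 10, 11, 17, 19 and 15 in control 5, control 9, control 13, control 27, control 44 and control 54, against limits of 15.3 to 21.3. Negative-control probes averaged 8.62 to 11.4 counts in BDS samples and 8.25 to 10.4 in controls, so Csf2 lay at their level and no fold change is given. The other ligands of the shared chain on the panel, Il3 and Il5, were also above background in 0 of 12 samples. The T cell markers Cd3d and Cd3e had at most 11 raw counts in any sample, whereas Cd5, Cd27, Il7r, Tcf7, Klrk1 and Prf1 of the same list were above background in 12 of 12.

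Markers of other cells that a sort could hold were summed as normalized counts. Of T cell and natural killer cell markers 10 of 19 were present, with sums of 5041 to 6093 in BDS and 5522 to 6561 in controls. The interleukin-7 receptor gene Il7r made up most of these sums, at 4682 ± 370 in BDS and 5102 ± 424 in controls (SD, n = 6 each). Of B cell markers 3 of 9 were present, summing to 211 to 463 in BDS and 235 to 344 in controls, and of mast cell markers 0 of 2. Of blood monocyte and border macrophage markers, cells that also carry Csf1r, only the chemokine receptor Ccr2 was present of 5, and the sums were 264 to 464 in BDS and 296 to 505 in controls. Of endothelial markers 3 of 4 were present, with 936 to 1307 in BDS and 964 to 1362 in controls. The summed ranges overlapped between the groups for every list. At an unadjusted p under 0.05 in edgeR, 11.5% of all 357 genes were lower in BDS and 0.84% higher. Single markers were among the lower genes, with log2 fold changes of -0.53 for Lck, -0.36 for Ccr2, -0.32 for Cdh5 and -0.25 for App. Without the 3 low-count samples they were at -0.58, -0.16, -0.16 and -0.09, in the same order. The B cell marker Tnfrsf13b was higher in BDS, at 0.59, and at 0.18 without those samples. After adjustment 0 of these 5 markers passed. The markers' part in the members' values was not tested.

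**Figure D3:**
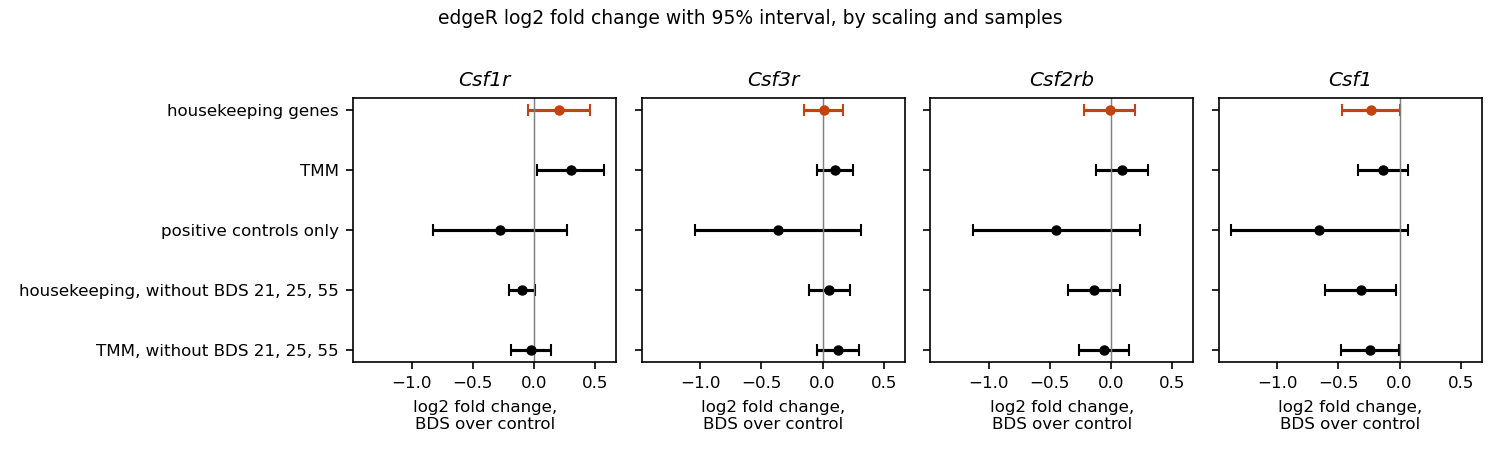
edgeR log2 fold change, BDS over control, of the 4 present members with 95% intervals, for 3 scalings and for the samples without BDS 21, BDS 25 and BDS 55. The points of Csf1 stay left of 0 throughout, from -0.66 to -0.14, while Csf1r lies at 0.20 and 0.30 with all samples under housekeeping and TMM scaling and at -0.28, -0.10 and -0.02 otherwise.

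Ratios between probes of the same sample do not depend on any scaling between samples, and 4 were examined. Csf1 over Csf1r, the ligand relative to its receptor, separated the groups most. Its log2 value, which sets 2 probes of unknown relative efficiency side by side and so has meaning only between samples, averaged -8.38 ± 0.21 in BDS and -7.98 ± 0.17 in controls (SD, n = 6 each). The difference was -0.40 (two-sided exact permutation test over 924 assignments, p = 0.0065, adjusted p = 0.026 over the 4 ratios, smallest possible p = 0.0022). Only control 9, at -8.21, reached into the BDS range of -8.61 to -8.16.

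That ratio was not set apart from the rest of the panel. When every other present gene was set over Csf1r, 36 of 356 ratios (10.1%) were lower in BDS at an exact permutation p under 0.05 and 1 (0.281%) was higher. Adjusted over all 356, the value for Csf1 was 0.36. The difference was -0.21 without BDS 21, BDS 25 and BDS 55 (exact permutation p = 0.083, smallest possible 0.012), where 1.4% of ratios were lower. Leaving out control 5, control 13, control 27, control 44 or control 54 moved the adjusted p over the 4 ratios to between 0.052 and 0.069 (exact permutation), with differences of -0.43 to -0.35.

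Csf1r over the geometric mean of the 12 microglial identity genes was 3.94 ± 0.27 in BDS and 3.68 ± 0.08 in controls (log2, SD, n = 6 each). The difference of 0.25 did not pass (exact permutation p = 0.056, adjusted p = 0.11 over the 4 ratios). The 3 low-count samples had 4.26, 4.15 and 4.09, and without them the difference was 0.02 (exact permutation p = 0.63). Without BDS 7, at 3.58 the lowest BDS sample, the difference was 0.33 and passed (exact permutation, adjusted p = 0.0087). Leaving out any other single sample did not bring it past the threshold. Calls also rose over the whole panel without BDS 7. In edgeR 96 genes had an unadjusted p under 0.05, against 44 with all samples, and 4 passed after adjustment, against 0. Csf2rb over Csf1r differed by -0.19 (exact permutation p = 0.080), and by -0.04 without the 3 low-count samples (exact permutation p = 0.67). Csf3r over Csf1r differed by -0.17 (exact permutation p = 0.25). For Csf3r over Csf1r the difference turned to 0.15 without the 3 low-count samples (exact permutation p = 0.036, adjusted p = 0.14 over the 4 ratios), where 2.25% of all ratios to Csf1r were higher.

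**Figure D4:**
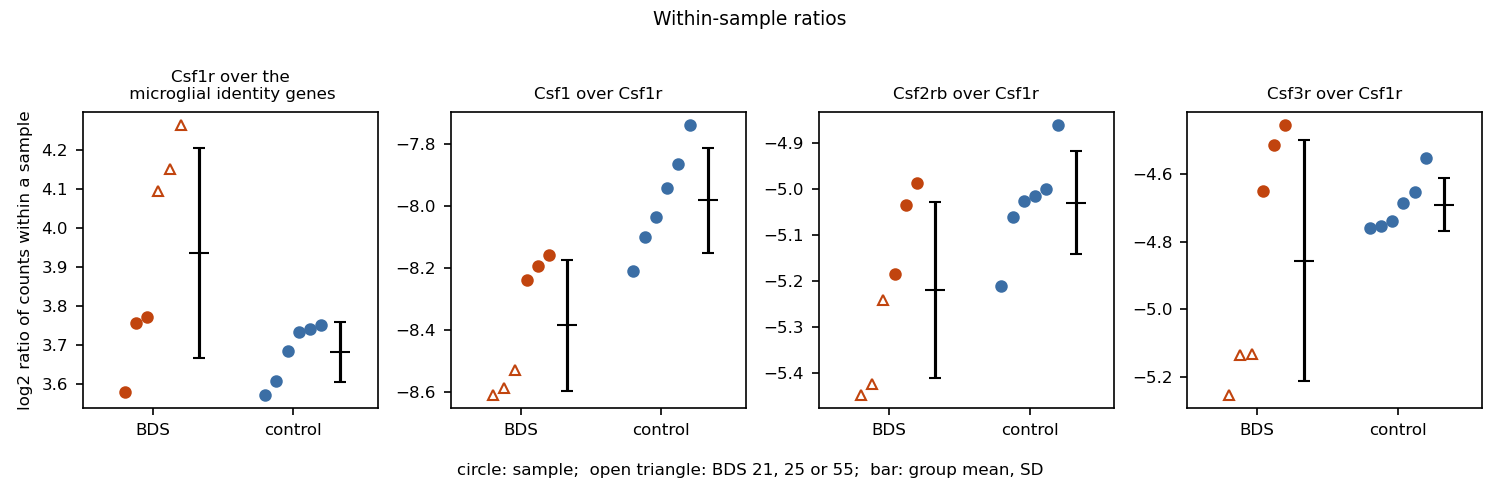
Log2 ratios of counts within each sample, for BDS samples (left) and control samples (right); open triangles are BDS 21, BDS 25 and BDS 55, bars are group means with SD, and the axes do not start at 0. The open triangles hold the highest values of Csf1r over the microglial identity genes and the lowest of Csf1 over Csf1r.

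Genes that act with or below these receptors showed 0 calls after adjustment. The signalling list held 33 genes, 20 of them on the panel and 19 present. Of these 19, 14 had log2 fold changes below 0 and 5 above, with a median of -0.10, equal to the median of -0.10 over all 357 genes. Of all 357 genes, 236 lay below 0. At an unadjusted p under 0.05 in edgeR, 2 of the 19 signalling genes were lower and 0 higher. The background was 11.5% of all 357 genes lower and 0.84% higher. Stat5a, a transcription factor activated through Csf2rb and Csf3r, had 306 ± 46 normalized counts in BDS and 362 ± 19 in controls, with a log2 fold change of -0.24 (edgeR, unadjusted p = 0.044, adjusted p = 0.38). Blnk, an adaptor of tyrosine kinase signalling, had 3462 ± 372 in BDS and 3078 ± 155 in controls, at 0.17 (edgeR, adjusted p = 0.38). Without the 3 low-count samples Stat5a was at -0.08 and Blnk at 0.05. In that comparison 0 genes of the list had an unadjusted p under 0.05, beside 5.6% of all genes lower and 0% higher.

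Of 9 present myeloid transcription factors, 6 lay below 0, beside 236 of all 357 genes. Their median was -0.04 and turned to 0.05 with TMM. Maf, a macrophage transcription factor, had 908 ± 144 normalized counts in BDS and 1090 ± 97 in controls, at a log2 fold change of -0.26 (edgeR, unadjusted p = 0.029, adjusted p = 0.36). Runx1, a regulator of blood and microglial development, had a log2 fold change of -0.31 and Irf4 of -0.27, both with an unadjusted p above 0.05 in edgeR. Without the 3 low-count samples Runx1 was at -0.03, Maf at -0.11 and Irf4 at -0.13.

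The 12 microglial identity genes, all present, had 8 values below 0 and a median of -0.12. Over the whole panel 236 of 357 genes lay below 0, with a median of -0.10. Tgfbr2, a receptor of transforming growth factor beta, had 15381 ± 2371 normalized counts in BDS and 19043 ± 633 in controls, at a log2 fold change of -0.31 (edgeR, unadjusted p = 0.0054, adjusted p = 0.24). Every BDS sample lay below every control for Tgfbr2, as for 4 of 357 genes in all (1.12%). Ptprc, the leukocyte antigen CD45, was at -0.28 and Fcgr1, a high-affinity Fc receptor, at -0.13, both with an unadjusted p under 0.05 in edgeR. Without BDS 21, BDS 25 and BDS 55 these values were smaller, at -0.13 for Tgfbr2, -0.13 for Ptprc and -0.10 for Fcgr1. Csf1r and the 4 identity genes above 0, C1qb, Trem2, Fcgr3 and Itgax, lay on the other side. Without the 3 low-count samples 11 of the 12 identity genes had values below 0, and Fcgr3, at 0.02, was the exception. In that comparison 260 of 357 genes lay below 0.

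**Figure D5:**
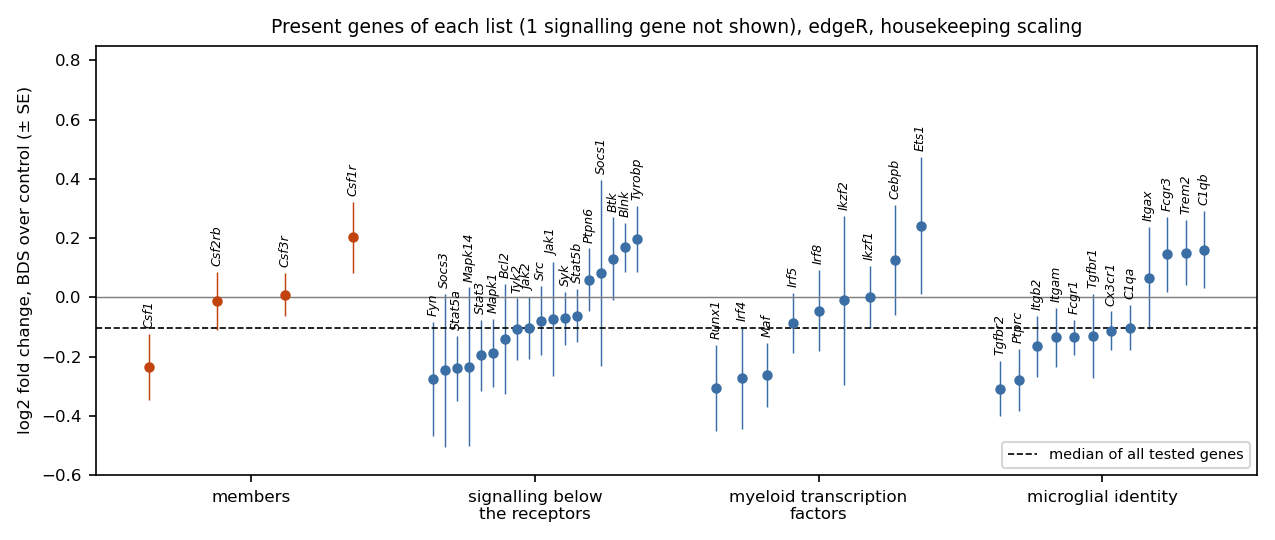
edgeR log2 fold change, BDS over control, with SE for the present members, 18 of the 19 signalling genes, the myeloid transcription factors and the microglial identity genes; the dashed line is the median of all tested genes, -0.10. Most listed genes lie below 0 with Csf1, as do 236 of all 357 tested genes, and Csf1r lies above 0 near Tyrobp, Trem2 and C1qb.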

How the data were processed

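The authors' deposited raw table holds unscaled barcode counts per probe. A second deposited table holds the authors' rounded scores after scaling by spikes and housekeeping genes, with their percent of samples above background, fold (a linear ratio) and p-value per gene. For the barcode reading, no software is named in the labels.

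The sample factor was the geometric mean over 6 housekeeping genes (Alas1, Gapdh, Oaz1, Polr1b, Sdha, Tbp), set relative to its geometric mean over samples; the submitters state 5 such genes but list these 6. BDS and control were compared over 357 present genes with edgeR 4.0.16 (quasi-likelihood test, no covariates, R 4.3.3), Benjamini-Hochberg adjustment and a threshold of 0.05. Ratios were tested with two-sided exact permutation tests. Alternatives used limma 3.58.1 and DESeq2 1.42.0 (no independent filtering), other scalings, filters and samples. The fit was tested on simulated data. Members, lists and ratios were chosen with earlier results of these data known. Genes named are the members, the 5 genes of highest correlation with each present member (log2 of normalized count plus 1), and in each list those with an unadjusted p under 0.05, filled up to 3; the remaining names, among them the markers, were chosen after their values were seen. The values of 1 signalling gene are not reported here. The 2 groups share no replicate number.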

Additional observations from a re-analysis of the deposited data

Results flagged for a closer look

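Samples far from the other 5 of their group were sought in 24 groups of values, for the 5 genes, the 4 ratios and the 3 lists; chance gives this in about 1 of 20 groups, and 2 were found. BDS 21 had 338.4 normalized counts of Csf1, with the next BDS sample at 289.3, and it was also the BDS sample of lowest total count. Control 44 had 3130 normalized counts of Csf2rb, with the next control at 2590.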

How the results depend on the processing

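The log2 fold changes of the 4 present members passed the adjusted threshold in 0 of 27 alternatives each (edgeR, DESeq2 or limma; unadjusted p under 0.05 in 5 for Csf1r, 8 for Csf1, 0 for Csf2rb and 0 for Csf3r). The sign of Csf1 never turned, nor did that of the median over all tested genes. Csf1r turned to -0.095 without BDS 21, BDS 25 and BDS 55, to -0.023 without them under TMM and to -0.28 with positive controls alone. Csf2rb turned to 0.091 with TMM, 0.081 with DESeq2's own size factors, 0.065 with total counts, 0.0048 without Sdha, 0.012 with all 14 housekeeping genes and 0.0013 on the deposited scores. Csf3r turned to -0.36 with positive controls alone. Leaving out 1 sample gave 0.10 to 0.26 for Csf1r, -0.29 to -0.16 for Csf1, -0.061 to 0.047 for Csf2rb and -0.019 to 0.044 for Csf3r. Genes past the adjusted threshold numbered 1 with positive controls alone and 0 to 4 with 1 sample left out, the 4 without BDS 7. Genes at an unadjusted p under 0.05, 44 in all, numbered 27 with DESeq2's own size factors, 20 without the 3 low-count samples, 9 without them under TMM, and 26 to 96 with 1 sample left out (26 without BDS 25 or BDS 55, 96 without BDS 7). With positive controls alone, where the median of all genes was -0.50, the list medians were -0.48 for signalling, -0.47 for transcription factors and -0.51 for microglial identity. The last was -0.028 with TMM, -0.036 with DESeq2's own size factors, -0.046 with total counts and -0.044 under TMM without the 3 samples. The difference of Csf1 over Csf1r was -0.21 without the 3 samples and -0.45 to -0.35 with 1 sample left out, that of Csf1r over the identity genes 0.19 to 0.33 with 1 left out, and that of Csf3r over Csf1r 0.15 without the 3 samples. The causes were not tested; the smaller comparisons also hold fewer samples. No paired analysis was possible because the groups share no replicate number. For Csf2 no alternative is given, since both groups lay at background.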
